A study of Rattus norvegicus with 3 samples.

Results

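A dividing cell copies its DNA in S phase and separates the copies after G2, in mitosis. In S phase the MCM helicase, loaded with the help of Cdc6 and activated by Cdc45 and the GINS complex, opens the DNA, Pcna and Fen1 act at the replication fork, thymidylate synthase and ribonucleotide reductase supply nucleotides, and Slbp handles histone mRNA. In G2 and mitosis, cyclins A and B bind Cdk1, the Aurora, Plk1, Bub1 and Ttk kinases act on spindle and kinetochore, motor proteins move the chromosomes, and Ube2c takes part in ending mitosis. The members described here are 38 genes of these machines, 16 of S phase and 22 of G2/M, grouped by role from textbook knowledge. They are read in single-cell libraries of condylar cartilage and subchondral bone of the temporomandibular joint of Sprague Dawley rats. The 3 libraries are a sham group and a unilateral anterior crossbite (UAC) group, both given the empty viral vector, and a crossbite group given a vector for miR-330, called the miR-330 library below. Its label says treatment and does not name miR-330, so that assignment was inferred from the description of the study. Each library pools 16 condyles of 8 rats, so no library has a replicate, and the intervals below hold counting error alone. The UAC library is in each of the 2 comparisons, so a low value there makes the first difference lower and the second higher.

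The deposited tables give the mean count of each gene in each cluster, 15 clusters in sham, 18 in UAC and 19 in the miR-330 library, numbered anew in each. The counts recovered from them come to 77668015, 92629658 and 97255383 UMIs. Of the members, 37 are listed in the 3 libraries, each on 1 identifier, and Ccnb2 is not listed. Clusters are named here from marker genes, with "-like" to mark that they are groups of cells that resemble a cell class. B lineage-like clusters are 1, 2, 3, 4, 5, 6, 7, 9 and 11 in sham, 1, 2, 3, 4, 5, 6, 10 and 15 in UAC, and 1, 2, 3, 4, 7, 12, 13, 14 and 16 in the miR-330 library. In sham 3, UAC 5 and miR-330 12 and 16, no class has more than 1 enriched marker. Their name rests on level alone, with 9, 9, 10 and 9 B lineage markers high enough. Sham cluster 5, with 2 enriched markers, was also named by level. The erythroid-like cluster is 13 in sham, 11 in UAC and 11 in the miR-330 library, and it also holds 10, 9 and 9 of the B lineage markers at the level that names a B lineage-like cluster. Granulocyte-like clusters are 8 and 10 in sham, 7, 8, 12 and 18 in UAC, and 6, 9, 15 and 18 in the miR-330 library. The monocyte-macrophage-like cluster is 15, 9 and 10, and the chondrocyte-like cluster is 12, 16 and 17. Sham cluster 14 and miR-330 cluster 5 have no name, and the other clusters are given by number. Each of those 2 has 8 enriched erythroid markers, beside 8 of early granulocytes in the first and, in the second, 6 of plasma cells (with Igh-6 and Jchain among its leading genes) and 5 B lineage markers at the level that names such clusters. Haemoglobin genes hold 7.49% and 6.85% of their UMIs, but 0.0440%, 0.136% and 0.278% in the erythroid-like cluster of sham, UAC and miR-330, against 0.185%, 0.0612% and 0.255% in the whole libraries. The erythroid-like name thus rests on markers such as Car1 and Klf1, and in sham that cluster is below its library in haemoglobin.

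In whole libraries, the S phase members together differed little. Their summed level was 1003 UMIs per 1000000 (CPM; 95% interval 996 to 1010) in sham, 997 (990 to 1003) in UAC and 974 (968 to 980) in the miR-330 library. That is a log2 ratio of -0.00920 (-0.0230 to 0.00458) for UAC against sham and -0.0333 (-0.0464 to -0.0202) for miR-330 against UAC. The sign of each depends on what is summed, and the interval of the first holds 0. The second is 0.00289 without Pcna, the member with the most UMIs, and 0.0807 without the B lineage-like clusters. Without the highest G2/M cluster of each library, an alternative added after seeing the data, the ratios are 0.122 and 0.0979, and without the highest S phase cluster, also added, -0.127 and 0.358. The G2/M members were lower in UAC and highest in the miR-330 library, at 1790 (1780 to 1799), 1533 (1526 to 1541) and 2135 (2126 to 2144) CPM. The log2 ratios are -0.223 (-0.234 to -0.212) and 0.477 (0.468 to 0.487), or 0.857-fold and 1.39-fold. They keep their direction but become -0.0947 and 0.961 without the highest G2/M cluster of each library (added after seeing the data). The median log2 ratio of the members was -0.0341 and -0.0614 for S phase and -0.217 and 0.265 for G2/M, beside -0.0195 and 0.133 over all genes with enough UMIs. In all, 20 of the 21 G2/M members were below 0 for UAC against sham, Pimreg being the exception, and 16 of 21 above 0 for miR-330 against UAC. In the S phase list 10 of 16 and 11 of 16 were below 0.

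**Figure D1:**
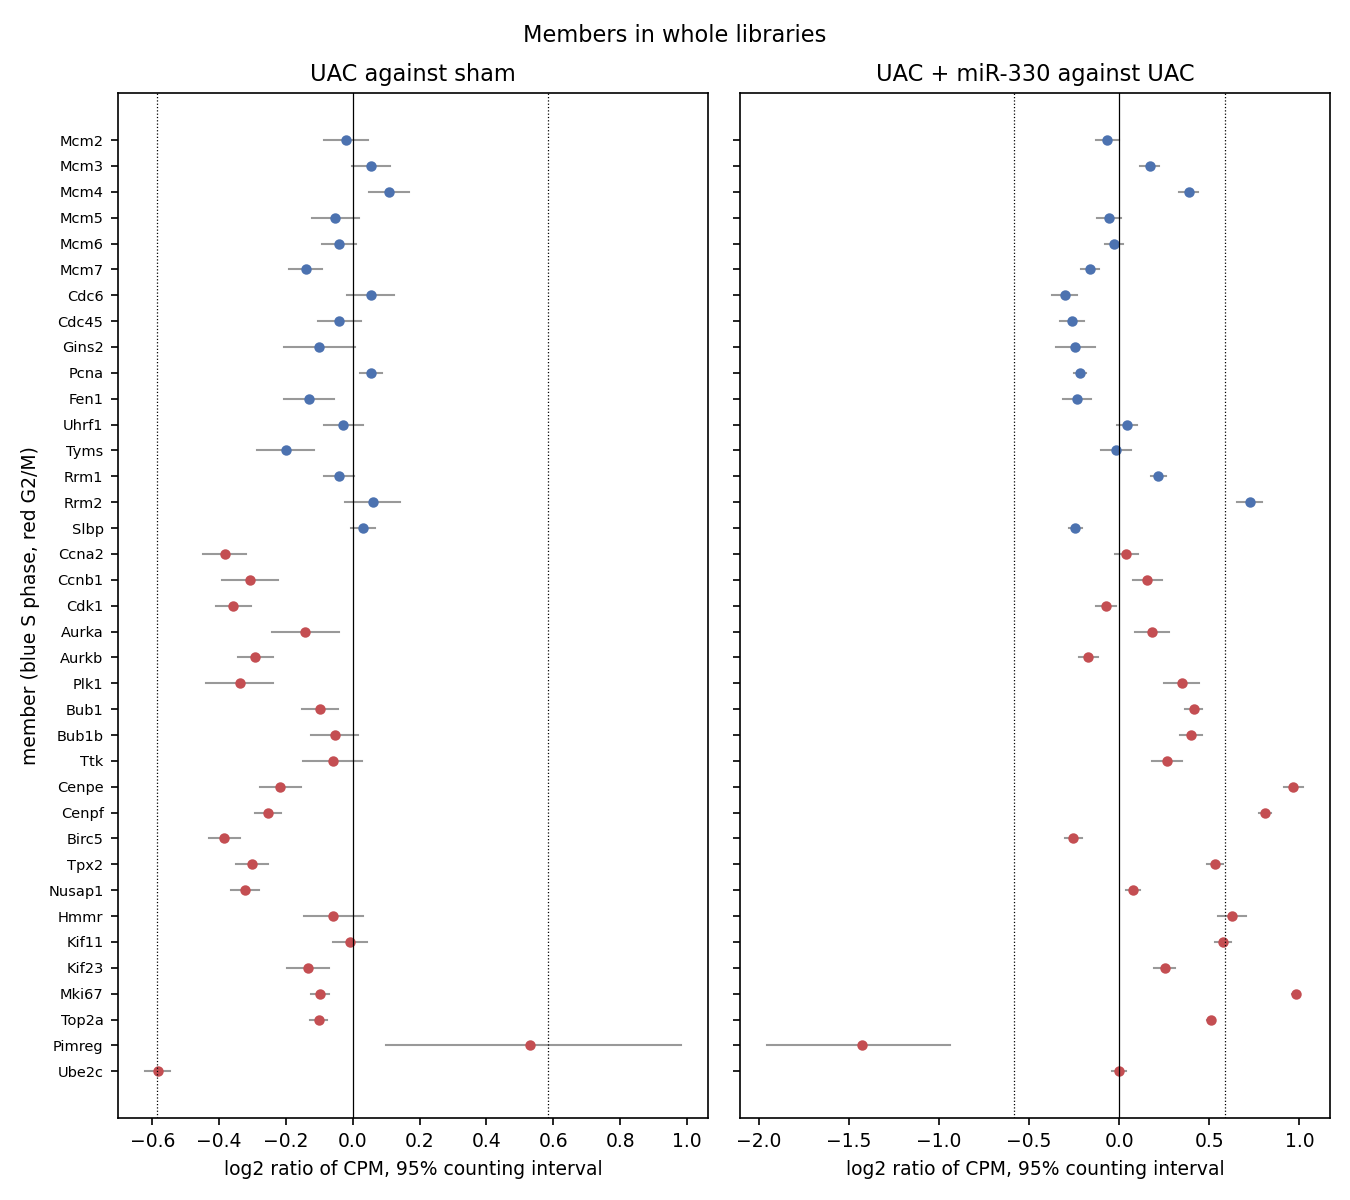
Log2 ratio of each listed member between whole libraries, with its 95% counting interval. Blue, S phase; red, G2/M. Dotted lines mark 1.5-fold.

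Few members passed a 1.5-fold difference in whole libraries. Between sham and UAC, 0 of 16 S phase and 0 of 21 G2/M members passed it in either direction, while 6.97% of all genes were higher and 6.05% lower. Ube2c lay just inside, at 165, 110 and 110 CPM (log2 ratio -0.584, -0.622 to -0.547, for UAC against sham). Between UAC and miR-330, 1 of 16 S phase members was higher and 0 lower, and 4 of 21 G2/M members were higher and 1 lower, beside 11.4% of all genes higher and 3.67% lower. The S phase member is Rrm2 (27.3, 28.5 and 47.0 CPM in sham, UAC and miR-330). The G2/M members are Mki67 (254, 238 and 469 CPM), Cenpe (54.4, 46.8 and 91.5), Cenpf (138, 116 and 203), Hmmr (25.0, 24.0 and 36.9) and, lower, Pimreg (0.901, 1.31 and 0.483). Pimreg rests on few counts, 70, 121 and 47 UMIs. In alternatives added after seeing the data, Rrm2 (0.513) and Hmmr (0.412) fall inside the fold against genes of like length, which leaves 0 S phase members, and Hmmr does so less the median of all genes too.

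By role, the S phase sums differed little between sham and UAC and parted in the miR-330 library. The MCM genes Mcm2, Mcm3, Mcm4, Mcm5, Mcm6 and Mcm7 summed to 349, 344 and 356 CPM. Cdc6, Cdc45 and Gins2 summed to 100, 99.4 and 82.2, and the fork genes Pcna, Fen1 and Uhrf1 to 258, 260 and 233. The sum of the nucleotide genes Tyms, Rrm1 and Rrm2 was higher in the miR-330 library, at 150, 145 and 179 CPM, through Rrm1 and Rrm2 and not Tyms, while Slbp read 145, 148 and 125. The members with the most UMIs are Pcna (166, 173 and 148 CPM), Slbp and Rrm1 (94.9, 92.2 and 107). The highest log2 ratios of S phase members for UAC against sham are Mcm4 (50.9, 54.8 and 71.6 CPM; 0.108) and Rrm2 (0.0593), and the lowest Tyms (28.3, 24.6 and 24.3 CPM; -0.201) and Mcm7 (79.8, 72.4 and 64.8 CPM; -0.141). In the second comparison the highest are Rrm2 (0.724, 0.654 to 0.794) and Mcm4 (0.386, 0.334 to 0.439), and the lowest Cdc6 (37.2, 38.6 and 31.3 CPM; -0.302) and Cdc45 (45.5, 44.3 and 37.0 CPM; -0.261). The near-equal S phase sums therefore hold genes that differ in opposite directions.

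Among the G2/M roles, each sum was lower in UAC than in sham, and the gap between miR-330 and UAC ran from near 0 to 1.56-fold. Ccna2, Ccnb1 and Cdk1 summed to 159, 124 and 125 CPM, and the kinases Aurka, Aurkb, Plk1, Bub1, Bub1b and Ttk to 251, 224 and 262. Cenpe, Cenpf and Birc5 came to 296, 242 and 361, Tpx2, Nusap1, Hmmr, Kif11 and Kif23 to 367, 319 and 416, and Mki67, Top2a, Pimreg and Ube2c to 716, 624 and 971. Thus the cyclin and Cdk1 sum remained at its UAC level in the miR-330 library (log2 ratio 0.0126, -0.0243 to 0.0495), whereas the last sum was 1.56-fold higher. Mki67, Top2a (295, 275 and 391 CPM) and Cenpf have the most UMIs. For UAC against sham the highest log2 ratios are Pimreg (0.531, 0.0990 to 0.981) and Kif11 (73.5, 73.0 and 109 CPM; -0.00874), and the lowest Ube2c and Birc5 (104, 79.5 and 66.6 CPM; -0.384), closely followed by Ccna2 (52.5, 40.2 and 41.4 CPM; -0.383). In the second comparison the highest are Mki67 (0.982, 0.958 to 1.00) and Cenpe (0.966, 0.914 to 1.02), and the lowest Pimreg (-1.43, -1.95 to -0.937) and Birc5 (-0.254, -0.302 to -0.205). Mki67 and Ube2c, each highest in a B lineage-like cluster, thus part ways: the ratio of Ube2c to Mki67 UMIs was 0.650, 0.464 and 0.235.

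The differences of all genes went with gene length, and the members share in this, the S phase members little for UAC against sham. The measure, added after the values were seen, is the span of the gene on the rat genome. For miR-330 against UAC the rank correlation of log2 ratio and length over 12275 genes was 0.476, and the median log2 ratio by quartile of length, shortest first, was -0.118, 0.0519, 0.211 and 0.363. The correlation over 12147 genes for UAC against sham was 0.191, with medians of -0.140, -0.0478, 0.0287 and 0.0519. Among the G2/M members the correlation was 0.462 for UAC against sham and 0.729 for miR-330 against UAC, and among the S phase members 0.0941 and 0.453. Median lengths are 28.5 kb for G2/M and 15.3 kb for S phase. Less the median of all genes in the same quartile of length, the median G2/M member stood at -0.164 and 0.186, and the median S phase member at 0.0146 and -0.0911. Of 21 G2/M members, 20 stood below genes of like length for UAC against sham, and 16 above for miR-330 against UAC, with Cdk1, Aurkb, Birc5, Nusap1 and Pimreg below. The share of the differences that goes with length was not tested. The share of UMIs from ribosomal protein genes was 13.2%, 11.9% and 10.0%, and that from mitochondrial genes 5.32%, 4.97% and 4.91%.

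**Figure D2:**
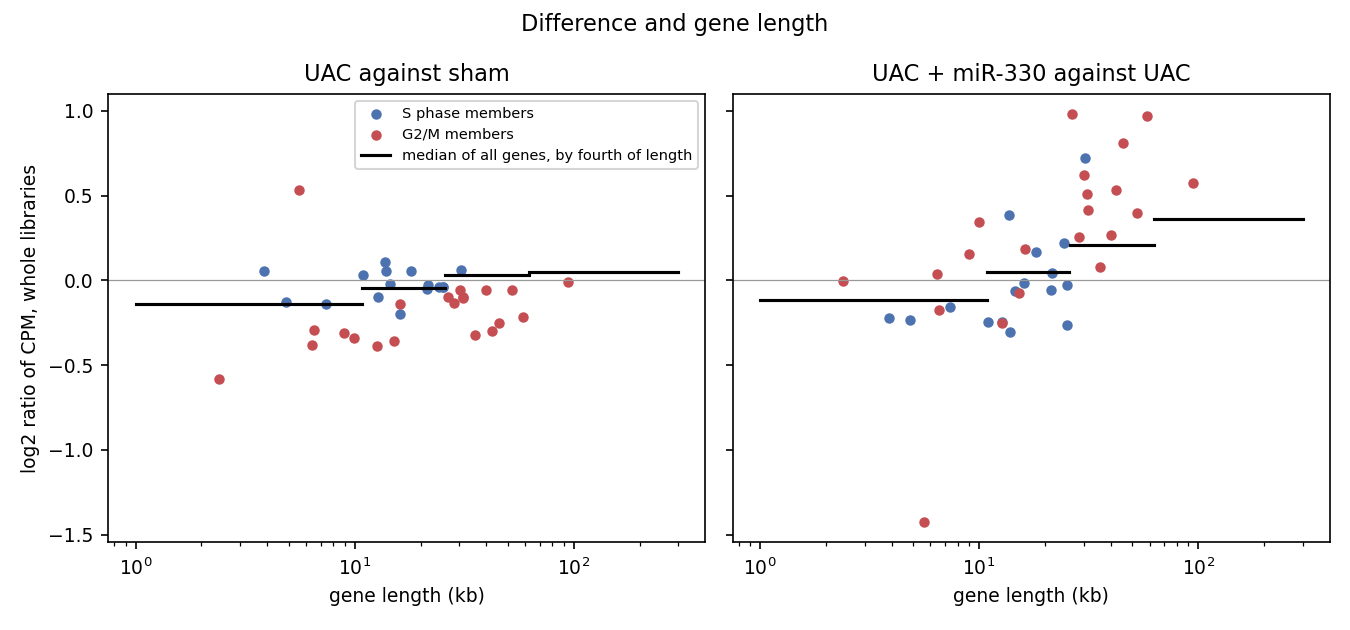
Log2 ratio of each listed member against the length of its gene. Black lines, median of all genes in each quartile of gene length, drawn from 1 kb to 300 kb.

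The cell cycle genes are concentrated in few clusters. In sham, S phase sums were highest in clusters 13 (2748 CPM), 3 (2489), 15 (569), 14 (401) and 11 (339) and lowest in 9 (213), 12 (210) and 8 (170). In UAC they were highest in 11 (3010), 5 (2501), 18 (978), 9 (481) and 14 (415) and lowest in 10 (191), 12 (118) and 7 (114). In the miR-330 library they were highest in 16 (3296), 11 (2915), 12 (1558), 18 (1137) and 10 (602) and lowest in 17 (143), 9 (125) and 15 (119). The top 2 S phase clusters are thus a B lineage-like and an erythroid-like cluster in each library, and the 3 lowest include a granulocyte-like cluster in each library and the chondrocyte-like cluster in sham and in the miR-330 library. Granulocyte-like cluster 18 is, by contrast, among the 5 highest in UAC and in the miR-330 library. For G2/M, sham was highest in clusters 3 (6204 CPM), 13 (3952), 10 (849), 15 (729) and 14 (691) and lowest in 2 (98.0), 4 (93.4) and 8 (75.8). UAC was highest in 5 (6048), 11 (3593), 18 (2043), 16 (559) and 9 (481) and lowest in 8 (78.6), 12 (62.2) and 7 (54.9). The miR-330 library was highest in 16 (9377), 12 (8164), 11 (5336), 18 (2499) and 10 (907) and lowest in 4 (81.3), 15 (77.2) and 1 (76.5). The highest G2/M cluster is B lineage-like in each library, and it reads 36.0, 47.2 and 40.3 times the median cluster, against 9.61, 10.32 and 11.03 times for the highest S phase cluster. Since the clusters were drawn from the same cells and genes, these rankings describe the clusters and test nothing.

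**Figure D3:**
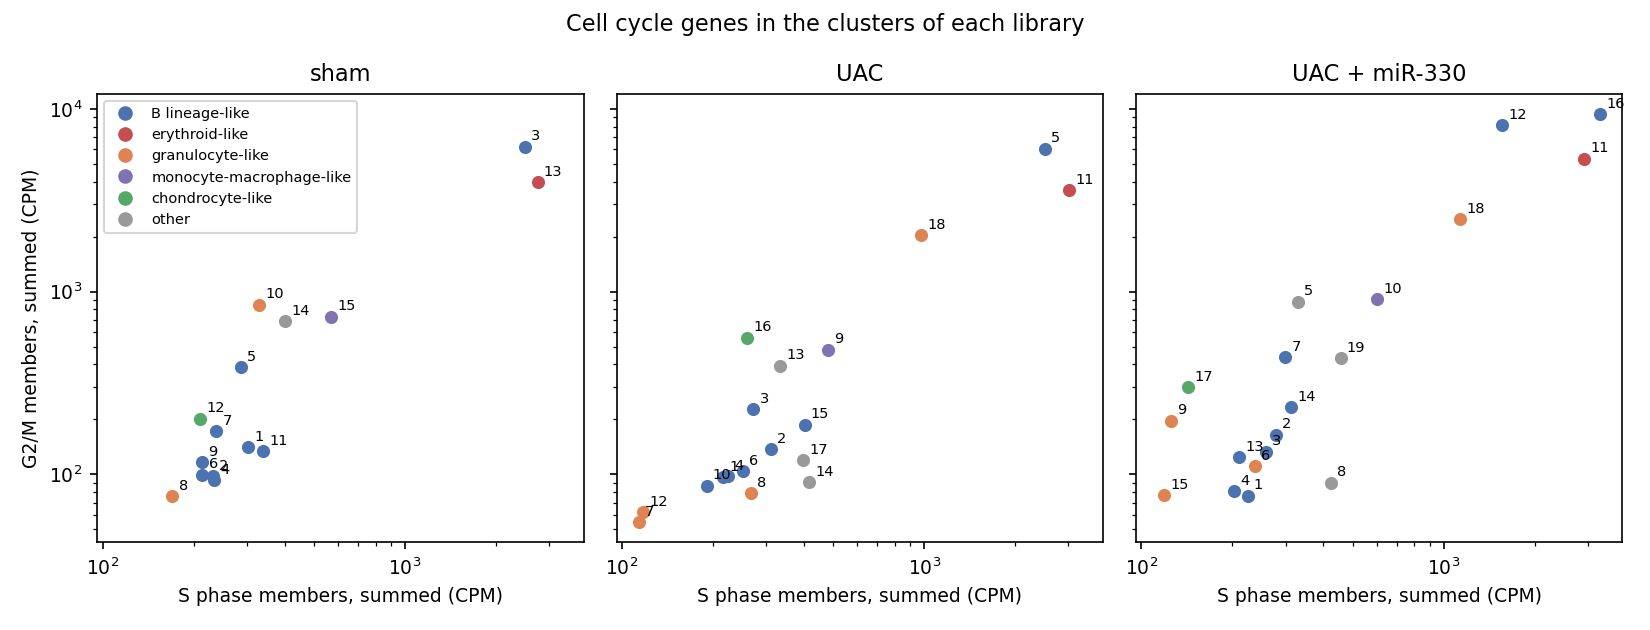
Summed level of the G2/M members against that of the S phase members in each cluster of the 3 libraries. Numbers are cluster numbers, colours the class named from markers, on log scales.

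S phase and G2/M sums went together over clusters, with a Pearson correlation of their log2 values of 0.921, 0.904 and 0.894. Their ranks differ more for some clusters. UAC cluster 16 ranks 12 for S phase and 4 for G2/M, and miR-330 cluster 8 ranks 7 and 16. The B lineage-like and erythroid-like clusters above the library's own G2/M level (3 and 13 in sham, 5 and 11 in UAC, 11, 12 and 16 in the miR-330 library) hold 80.8%, 77.4% and 76.2% of the S phase UMIs and 89.3%, 85.9% and 86.7% of the G2/M UMIs, with 31.1%, 27.8% and 27.3% of all UMIs. Granulocyte-like cluster 18 was also above the library's G2/M level in UAC and in the miR-330 library. The clusters where members peak differ in part between the phases, least in the miR-330 library, where cluster 16 is the peak of most members of each phase. In sham, 5 S phase and 18 G2/M members were highest in cluster 3, where 7.49% of all genes are highest, and 11 and 2 in cluster 13 (14.1%). In UAC, 3 and 17 were highest in cluster 5 (7.34%) and 13 and 1 in cluster 11 (13.5%). In the miR-330 library, 9 and 13 were highest in cluster 16 (7.88%), 0 and 7 in cluster 12 (2.74%) and 7 and 0 in cluster 11 (12%). For those clusters together the share of all genes is 21.6%, 20.9% and 22.6%. Mcm2, Mcm3, Mcm4, Mcm5, Mcm6, Mcm7 and Gins2 were highest in the erythroid-like cluster of the 3 libraries, while most G2/M genes peak in a B lineage-like cluster. Cdc45 peaks in the B lineage-like cluster too (3, 5 and 16), and Cdc6 in clusters 3, 11 and 16, so the genes that load and activate the helicase do not share 1 peak. The exceptions outside these clusters are Aurka and Plk1 in UAC cluster 18 (44.3 and 50.3 CPM; 1.45% of all genes) and Pimreg, highest in the chondrocyte-like cluster of each library (3.22, 17.1 and 2.72 CPM in clusters 12, 16 and 17), where 17.9% of all genes are highest in sham and 17.1% in UAC. Pimreg has too few UMIs in the miR-330 library to be counted among the members there. It had 41.4%, 84.3% and 34.0% of its UMIs there and 0 UMIs in the granulocyte-like clusters of the 3 libraries.

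In the miR-330 library, 2 B lineage-like clusters stand above the library in G2/M, where sham and UAC have 1. Cluster 12 against cluster 16 had 0 of 16 S phase members past 1.5-fold higher and 14 lower, with a median log2 ratio of -0.953, and 3 of 20 G2/M members higher and 3 lower, with a median of -0.273, beside 9.36% of all genes higher and 8.17% lower. The higher ones are Ccnb1 (99.0 CPM in cluster 12 and 41.8 in cluster 16), Ube2c (449 and 257) and Cenpf (1079 and 670), and the lower ones Ccna2 (101 and 178), Nusap1 (366 and 610) and Bub1b (144 and 223). Rrm2 (56.5 and 248) and Cdc6 (54.9 and 161) show the widest gaps of the S phase list. Cluster 12 therefore has a higher ratio of G2/M to S phase sums, 5.24 against 2.85 in cluster 16, where sham cluster 3 has 2.49 and UAC cluster 5 has 2.42.

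**Figure D4:**
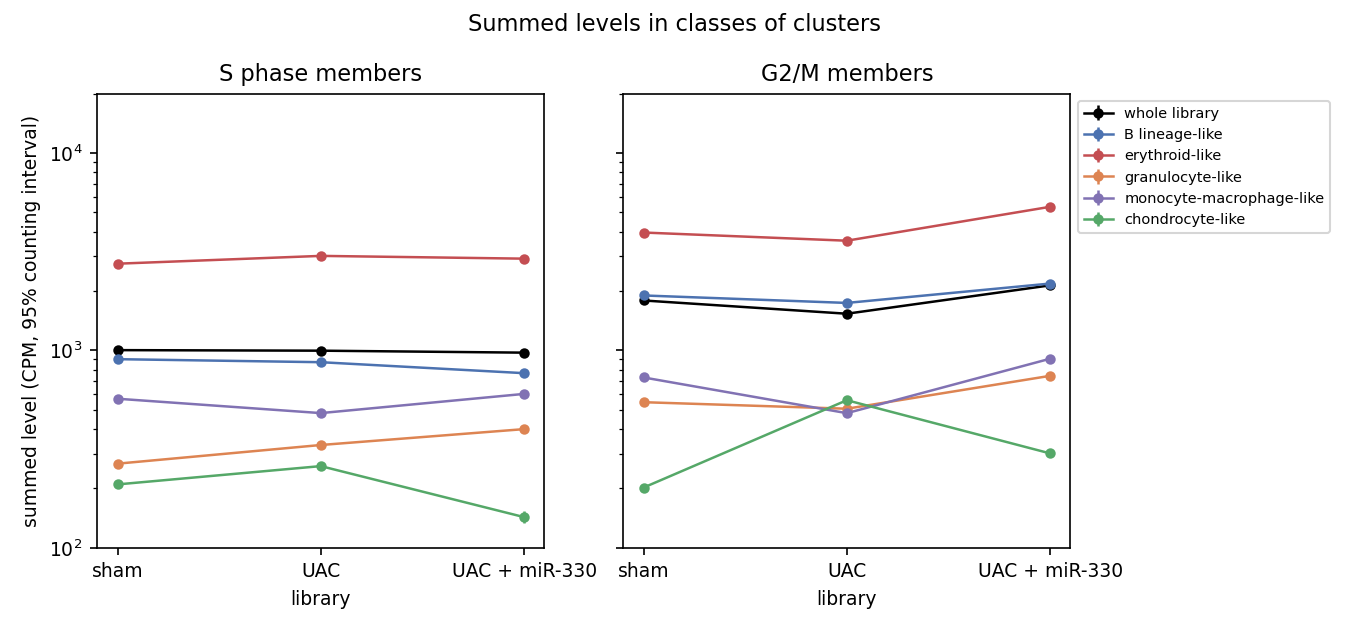
Summed level of the S phase and G2/M members in each library, in the whole library and in the classes of clusters named from markers, with 95% counting intervals.

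Within classes of clusters, the B lineage-like and erythroid-like peaks were, like the libraries, lowest in UAC and highest in the miR-330 library for G2/M. In all B lineage-like clusters together, G2/M sums were 1898, 1739 and 2180 CPM (log2 ratios -0.126 and 0.326) and S phase sums 903, 871 and 767 (-0.0509 and -0.185). For UAC against sham 0 of 20 G2/M and 0 of 16 S phase members passed 1.5-fold there (3.34% of all genes higher, 2.71% lower), and for miR-330 against UAC 3 of 20, Mki67, Cenpe and Cenpf, were higher and 0 lower and 0 of 16 passed it (8.7% higher, 4.97% lower). The split into peak and remaining clusters that follows was made by the G2/M sum itself, so it describes the clusters and is no independent comparison of G2/M. In the B lineage-like clusters above the library (3; 5; 12 and 16), G2/M sums were 6204, 6048 and 8792 CPM and S phase sums 2489, 2501 and 2458. For UAC against sham 0 of 20 G2/M members and 0 of 16 S phase members passed 1.5-fold (3.87% of all genes higher, 1.65% lower). For miR-330 against UAC 5 of 20, Mki67, Cenpe, Cenpf, Hmmr and Kif11, and 1 of 16, Rrm2, were higher (7.8% higher, 3.72% lower) and none of these members was lower. The remaining B lineage-like clusters were far below, at 165, 141 and 170 CPM for G2/M and 264, 267 and 253 for S phase. There 4 of 20 G2/M members, Plk1, Ube2c, Nusap1 and Birc5, were lower in UAC than in sham and 0 higher, and 0 of 16 S phase members passed the fold (3.37% of all genes higher, 3.15% lower). With miR-330, 6 of 20 (Mki67, Tpx2, Top2a, Plk1, Cenpf and Cenpe) were higher than in UAC and Ccna2 lower, and of 16 S phase members Cdc6 was lower and 0 higher (8.85% higher, 5.06% lower). The erythroid-like cluster had G2/M sums of 3952, 3593 and 5336 CPM and S phase sums of 2748, 3010 and 2915. There 0 of 20 and 0 of 16 members passed the fold for UAC against sham (6.83% higher, 1.44% lower), and for miR-330 against UAC 7 of 20 G2/M members, Cenpe, Mki67, Cenpf, Kif11, Hmmr, Tpx2 and Top2a, and Rrm2 of 16 were higher and 0 lower (13.6% higher, 3.12% lower). The genes of these members are 26.7 to 94.3 kb long, and the rank correlation of log2 ratio and length over all genes in the erythroid-like cluster is 0.522 for miR-330 against UAC. Bub1, Bub1b, Ttk, Nusap1 and Kif23 lie in that range of length too and did not pass. Less the median of genes of like length, the median G2/M member there stood at 0.294, with 16 of 20 above. Markers differed here as well. In the erythroid-like cluster erythroid markers summed to 865, 1678 and 1771 CPM and B lineage markers to 6364, 5963 and 6601. The B lineage sum is lowest in UAC and highest in the miR-330 library as G2/M is. Most of it is Ebf1, at 4062, 3924 and 4879 CPM. The other B lineage markers together do not share this order and were highest in sham and lowest in the miR-330 library. In the B lineage-like clusters above the library, erythroid markers summed to 136, 35.9 and 17.0 CPM and B lineage markers to 10779, 11871 and 13542. Ebf1 is most of the B lineage sum there too, at 7993, 9134 and 10866 CPM, and the other B lineage markers together were highest in sham and lowest in the miR-330 library.

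Of the classes compared here, the chondrocyte-like cluster had the widest G2/M difference between UAC and sham, from a low level. Its G2/M sum was 202 CPM (193 to 211) in sham, 559 (541 to 579) in UAC and 301 (287 to 315) in the miR-330 library, log2 ratios of 1.47 (1.39 to 1.55) and -0.895 (-0.979 to -0.812). Its S phase sum was 210, 259 and 143 CPM. In UAC, 20 of 21 G2/M and 3 of 14 S phase members were past 1.5-fold higher than in sham and 0 lower, beside 10.5% of all genes higher and 1.61% lower. Bub1b (4.88, 7.02 and 4.25 CPM) was the G2/M member inside the fold, and Rrm2, Gins2 and Uhrf1 were the S phase members past it. With miR-330, 16 of 20 G2/M and 7 of 11 S phase members were lower than in UAC and 0 higher, beside 8.48% higher and 8.01% lower. The 4 within the fold there are Cenpf (18.3, 91.3 and 73.1 CPM), Cenpe (5.88, 17.1 and 18.9), Mki67 (18.8, 55.2 and 45.9) and Bub1 (6.65, 13.5 and 11.6), so these stayed near their UAC level while Ccna2 (5.21, 14.7 and 2.72) and Ccnb1 (6.10, 18.1 and 5.78) did not, and the rank correlation of log2 ratio and gene length over the G2/M members is 0.756. Aurka has too few UMIs for the count in this comparison. For UAC against sham the correlation with gene length over the G2/M members is -0.0610, and 21 of 21 stood above genes of like length. The make-up of the signal also differs from that of the peak clusters: Cenpf to Mki67 UMIs read 0.971, 1.65 and 1.59 in this cluster and 0.528, 0.477 and 0.437 in the B lineage-like clusters above the library. The remaining B lineage-like clusters, also low in G2/M, read 0.974, 0.899 and 0.749, so in sham the ratio is not particular to the chondrocyte-like cluster. Markers of granulocytes went the same way in this cluster. Mature neutrophil markers summed to 1068, 3644 and 683 CPM and intermediate granulocyte markers to 1512, 3530 and 1395, while B lineage markers read 429, 393 and 275 and erythroid markers 7.54, 9.03 and 10.5. Chondrocyte markers summed to 62100, 49102 and 63871 CPM there. Osteogenic markers summed to 70167, 59454 and 60856 CPM, and 8 of them are enriched in this cluster of each library, so the class is mixed.

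The monocyte-macrophage-like cluster went in the opposite direction. Its G2/M sum was 729 (701 to 759), 481 (463 to 499) and 907 (883 to 932) CPM, log2 ratios of -0.601 (-0.679 to -0.522) and 0.916 (0.850 to 0.982), and its S phase sum 569, 481 and 602 CPM. Between sham and UAC, 12 of 20 G2/M and 2 of 16 S phase members (Cdc45 and Mcm4) were past 1.5-fold lower and 0 higher, beside 3.73% of all genes higher and 9.62% lower. Between UAC and miR-330, 15 of 20 and 9 of 16 were higher and 0 lower, beside 14.7% higher and 3.2% lower. Mki67 there read 130, 86.4 and 216 CPM, Top2a 90.1, 71.7 and 148, and Cenpe 19.5, 13.8 and 43.1. Aurka (18.6, 16.2 and 12.2) was the G2/M member furthest below 0 for miR-330 against UAC. The cells grouped here are not alike in the 3 libraries: mast and basophil markers summed to 661, 12.6 and 13.4 CPM in this cluster, erythroid markers to 105, 13.5 and 8.85 and B lineage markers to 994, 603 and 589, all highest in sham. Dendritic markers read 578, 344 and 557 CPM, lowest in UAC as G2/M is, and the markers of the class itself 3511, 2508 and 2925.

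In the granulocyte-like clusters together, G2/M sums were 547, 506 and 743 CPM and S phase sums 267, 332 and 399. For UAC against sham 3 of 16 S phase members, Uhrf1, Mcm3 and Mcm2, were higher and 0 of 20 G2/M members passed the fold (3.53% of all genes higher, 3.06% lower). For miR-330 against UAC 3 of 16 (Rrm2, Cdc6 and Mcm6) and 7 of 20 (Mki67, Cenpe, Hmmr, Cenpf, Kif23, Kif11 and Tpx2) were higher and 0 lower, beside 26% of all genes higher and 1.53% lower. The level here rests on single clusters: cluster 10 of sham (849 CPM for G2/M), cluster 18 of UAC (2043) and cluster 18 of the miR-330 library (2499) lie far above cluster 8 of sham (75.8), cluster 7 of UAC (54.9) and cluster 15 of the miR-330 library (77.2). Mast and basophil markers summed to 172, 15.1 and 2171 CPM in these clusters, and early granulocyte markers to 2896, 3114 and 6135. UAC cluster 13 (393 CPM for G2/M), with 9 enriched mast and basophil markers and 8 of early granulocytes, was named mast and basophil and is outside this class. Sham and the miR-330 library have no cluster of that name, so the class need not hold the same cells in each library.

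Markers of cell classes also differed between whole libraries, beside the sums above. B lineage markers read 10044, 8966 and 11271 CPM, lowest in UAC and highest in the miR-330 library as the G2/M members are. Most of that sum is Ebf1, at 7313, 6739 and 8904 CPM. The order is thus that of Ebf1, while the other B lineage markers together were lowest in UAC but highest in sham. Mature neutrophil markers read 35860, 55301 and 38360, erythroid markers 198, 276 and 324, and chondrocyte markers 7411, 3262 and 4011.

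Other genes of the cell cycle were read in 7 lists by role. The median log2 ratios for UAC against sham and for miR-330 against UAC were 0.0187 and 0.0280 for origin licensing (17 genes), -0.0811 and -0.0690 for DNA synthesis (30), -0.0118 and 0.113 for G1 and G1/S factors (18), 0.0825 and -0.0183 for CDK inhibitors (7), -0.147 and -0.00440 for kinetochore and checkpoint (19), -0.118 and 0.353 for spindle and cytokinesis (21), and -0.152 and 0.0568 for mitotic entry and condensin (20), beside -0.0195 and 0.133 over all genes. E2f1, Cdkn2d and Nek2 are not listed in each library. The mitotic lists are thus below all genes in the first comparison, and among them the spindle list alone is above in the second by its median. Its sum, at 1864, 1602 and 1564 CPM, is not higher with miR-330. Stmn1, given below, is the largest part of that sum, and the other genes of the list together were higher in the miR-330 library than in UAC. Cdkn1c, at 258, 109 and 138 CPM, is the gene of these lists past 1.5-fold for UAC against sham, lower (6.97% of all genes higher, 6.05% lower), and it peaked in the chondrocyte-like cluster (2141, 1601 and 2160 CPM). In miR-330 against UAC, 1, 0, 1, 0, 1, 3 and 1 genes of the lists in this order were past the fold, higher, and 0 lower, beside 11.4% of all genes higher and 3.67% lower: Orc1, E2f8, Sgo2, Anln, Lmnb1 and, with these values, Kif4a (37.6, 38.6 and 61.2 CPM) and Ckap2l (10.4, 11.1 and 17.5 CPM).

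Genes of these lists with the most UMIs, and those with the outermost ratios, give the range. In origin licensing they are Orc2 (109, 111 and 132 CPM) and Gmnn (107, 93.2 and 77.8), with Orc1 (3.36, 4.36 and 6.73) highest in each comparison and Gins1 (23.0, 19.8 and 17.5) and Cdt1 (18.2, 18.0 and 14.8) lowest. In DNA synthesis they are Dut (460, 389 and 356) and Prim1 (183, 178 and 160), with Pole (19.97, 22.15 and 25.96) and Clspn (21.3, 20.2 and 27.6) highest and Rpa3 (162, 127 and 98.4) and Pold2 (27.0, 22.2 and 16.6) lowest. These S phase lists repeat the mix of directions seen among the S phase members. Among G1 and G1/S factors they are Rb1 (327, 348 and 437) and Ccnd3 (282, 235 and 206), with Ccnd1 (6.27, 8.30 and 9.51) and E2f8 (3.24, 3.91 and 7.63) highest and Cdk4 (62.3, 49.1 and 43.4) and Cdk2 (39.1, 39.3 and 27.5) lowest. Among CDK inhibitors they are Cdkn1b (204, 230 and 292; highest for miR-330 against UAC) and Cdkn1c (lowest for UAC against sham), with Cdkn1a (36.5, 48.2 and 33.1) highest in the first comparison and lowest in the second. The factors that act before S phase therefore have no common direction. In the kinetochore list they are Spc24 (102, 83.4 and 76.5) and Bub3 (82.1, 67.0 and 55.9; lowest for miR-330 against UAC), with Knl1 (43.1, 48.2 and 58.7) and Sgo2 (49.8, 44.8 and 67.5) highest and Spc25 (51.5, 37.5 and 33.3) lowest for UAC against sham. In the spindle list they are Stmn1 (1111, 894 and 690; lowest for miR-330 against UAC) and Prc1 (83.3, 90.5 and 116), with Kif18a (34.3, 38.7 and 44.9) and Anln (11.9, 13.0 and 22.8) highest and Racgap1 (44.0, 34.1 and 36.7) lowest for UAC against sham. In the last list they are Hmgb2 (2597, 2175 and 2075) and Ube2s (316, 269 and 224), with Cdc25c (38.3, 41.4 and 40.7) and Lmnb1 (64.1, 65.5 and 120) highest and Cdca3 (56.6, 41.6 and 35.5) and Cks2 (263, 255 and 201) lowest. In the mitotic lists, too, single genes lie on each side of 0 in each comparison.

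Genes outside these lists share the cluster pattern. Out of 12456 genes with enough UMIs, those whose level over clusters followed the S phase sum most closely, by the lowest of the 3 libraries' correlations, include Kntc1 (0.951), Atad5 (0.948), Dnajc9 (0.941), Fancd2 (0.941), Ncapg2 (0.935), Ncapd3 (0.934), Brip1 (0.934) and Fanca (0.930). For the G2/M sum they are Shcbp1 (0.967), Spag5 (0.967), Depdc1 (0.964), Fbxo5 (0.962), Cep55 (0.962), Fam111a (0.953), Cenpt (0.953), Prr11 (0.953), Parpbp (0.953) and Pclaf (0.951). Of the members, 9 of 16 S phase genes followed the sum of the other S phase genes more closely than the G2/M sum in each library, and Uhrf1, Tyms and Rrm2 followed the G2/M sum more closely. Of 21 G2/M genes, 16 followed their own sum, and Kif23 the S phase sum.

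Most members with a matched promoter hold motifs known from cell cycle genes, Fen1 being an exception. In windows from 250 bases upstream to 50 bases downstream of the transcription start, read on either strand, CHR (TTTGAA or TTTAAA) occurs in 17 of 17 matched G2/M members and in 2 of 13 S phase members, against 29.7% of 27457 genes. A CCAAT box occurs in 14 of 17 and 9 of 13, against 39.6%, and CHR with a CCAAT box in 14 of 17 and 0 of 13, against 12.1%. The longer E2F words (TTTCCCGC, TTTCGCGC, TTTGCCGC or TTTGGCGC) occur in 1 of 17 and 8 of 13, against 2.37%, and the shorter E2F core (TTCCCGC or TTGGCGC), which overlaps them, in 3 of 17 and 8 of 13, against 7.03%. The phases thus differ in CHR and the E2F words, while the CCAAT box is common in each. Mcm4, Cdc6, Rrm2, Ccna2, Aurkb, Tpx2, Pimreg and Ube2c were not matched to a window. Ccnb2, not listed in the tables, has a window and is among the 17.

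Stretches of 150 bases upstream of the start are given for the 3 members of each phase with the most UMIs that hold the E2F word (S phase) or CHR (G2/M) there, from the rat assembly GRCr8, in the direction of transcription, with motifs in capitals. They were chosen after the motifs were counted. Mcm6, chromosome 13, 42404353 to 42404502, reverse strand: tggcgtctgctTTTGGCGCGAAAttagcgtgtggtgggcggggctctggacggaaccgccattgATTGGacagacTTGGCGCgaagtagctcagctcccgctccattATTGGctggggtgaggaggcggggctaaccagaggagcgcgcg. Mcm7, chromosome 12, 22163179 to 22163328, reverse strand: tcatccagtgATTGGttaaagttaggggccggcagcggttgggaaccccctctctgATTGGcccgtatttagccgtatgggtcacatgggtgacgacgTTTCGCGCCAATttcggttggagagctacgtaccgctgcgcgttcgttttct. Mcm2, chromosome 4, 122918095 to 122918244, reverse strand: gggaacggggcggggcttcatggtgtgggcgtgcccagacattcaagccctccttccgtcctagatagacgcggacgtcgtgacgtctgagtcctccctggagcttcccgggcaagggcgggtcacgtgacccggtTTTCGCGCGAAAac. Mki67, chromosome 1, 199952594 to 199952743, reverse strand: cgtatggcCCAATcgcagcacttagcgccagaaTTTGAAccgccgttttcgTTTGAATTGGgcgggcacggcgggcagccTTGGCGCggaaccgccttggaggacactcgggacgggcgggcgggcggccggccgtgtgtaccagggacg. Top2a, chromosome 10, 84473094 to 84473243, reverse strand: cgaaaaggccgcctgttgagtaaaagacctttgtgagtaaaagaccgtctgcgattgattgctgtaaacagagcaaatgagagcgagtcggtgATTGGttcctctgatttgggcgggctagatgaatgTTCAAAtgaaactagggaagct. Nusap1, chromosome 3, 127057145 to 127057294, forward strand: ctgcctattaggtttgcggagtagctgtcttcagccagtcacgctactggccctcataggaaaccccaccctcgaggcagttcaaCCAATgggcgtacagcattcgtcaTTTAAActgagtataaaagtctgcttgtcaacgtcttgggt. The CHR and CCAAT box of Top2a lie 22 and 57 bases upstream of the start, and those of Nusap1 41 and 65.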

How the data were processed

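The 3 deposited tables list, for each gene and cluster, a mean count, a log2 fold change and a p-value of the cluster against the rest. The log2 fold change and p-value columns were not used here. The mean counts are the signal values, and as deposited they are averages over cells that the authors made with Cell Ranger 7.0; a scale factor per column, if any, cancels in the levels used here. The processing notes name GRCh38 and mm10, while the identifiers in the tables are rat Ensembl ones. Dividing each column by its smallest positive value gave whole numbers for 100% of entries (within 0.001), which were taken as UMIs. The number of cells, and whether the authors' quality filter on cells came before these means, cannot be read from the tables.

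Levels are CPM of all UMIs of a library, class or cluster, with exact Poisson 95% intervals, and ratios have exact conditional binomial 95% intervals. With 1 library per group there is no spread between replicates, so no test and no count model was run. A gene counts as past the fold at 1.5-fold with at least 50 UMIs in the 2 libraries (or clusters) together, after adding 0.5 UMI. Identifiers sharing a name were summed. Names beginning with AY172581 were taken as mitochondrial.

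A cluster was named by the class with the most markers at a log2 ratio of at least 1 against the rest, at least 10 UMIs and at least 20 CPM, if there were at least 3, no tie, and no more markers of another class among its 10 leading genes (at least 100 UMIs). If no class had 3 such markers, it was B lineage-like with at least 5 B lineage markers at 50 CPM or more and 4 times the mean of the 3 lowest clusters, and no more leading genes among the markers of another class. Clusters that met neither condition have no name. This naming rule was settled after the tables were seen. Doublets were not treated and free RNA was not subtracted.

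The genes named are, per phase, the 3 members with the most UMIs and the 2 largest differences each way per comparison, in each library the 5 highest and 3 lowest clusters, of each pathway list the 2 genes with the most UMIs and the largest difference each way, and genes among the 10 most correlated with each phase, of which 2 for S phase are not used here. Other named genes were chosen after their values were seen. The members and lists were chosen with earlier results of these data known.

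Gene lengths and promoter windows come from the RefSeq annotation of rat assembly GRCr8. Tools were Python 3.11.15, numpy 2.4.6, pandas 2.3.3, scipy 1.17.1 and matplotlib 3.10.9.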

Additional observations from a re-analysis of the deposited data

Results flagged for a closer look

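The G2/M members differed in opposite directions in 2 classes of clusters, past 1.5-fold in each, and in each comparison. For UAC against sham their summed level in the chondrocyte-like cluster was 202 CPM in sham and 559 in UAC (log2 ratio 1.47), while in the monocyte-macrophage-like cluster it was 729 and 481 (-0.601), a gap of 2.07 between the log2 ratios. For miR-330 against UAC it was 301 after 559 CPM in the chondrocyte-like cluster (-0.895) and 907 after 481 in the monocyte-macrophage-like cluster (0.916), a gap of 1.81. The UAC library is in each comparison, so the gaps share its values. The difference was not tested, because each class has 1 library per condition.

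The clusters were drawn separately in each library, so a class need not hold the same kinds of cells in the 3 of them. Marker sums within the 2 classes differ between libraries, as given above: mature neutrophil markers read 1068, 3644 and 683 CPM in the chondrocyte-like cluster, and in the monocyte-macrophage-like cluster dendritic markers read 578, 344 and 557 and mast and basophil markers 661, 12.6 and 13.4. Doublets and free RNA cannot be told from expression in these tables. Neither the mix of cells nor the rats that went into a pool can be separated from the condition.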

How the results depend on the processing

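The highest cluster of each phase in each library was the same under its 3 alternatives (18 values). Of 24 alternative counts of members past the fold, 19 lay within 1.5 times the main count. Some of these could not change. Every listed member already passes the minimum of 50 UMIs, so a minimum of 10 adds none, and a 2-fold cut leaves a main count of 0 at 0. At 2-fold, miR-330 against UAC had 0 S phase and 1 G2/M member, Pimreg, lower. Without haemoglobin, immunoglobulin, ribosomal and mitochondrial genes in the total, UAC against sham had 1 G2/M member, lower. Against genes of the same quartile of length (added after seeing the data), UAC against sham had 1 G2/M member, higher, and miR-330 against UAC 0 S phase members.

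The G2/M sums kept their direction in 22 alternatives, from -0.291 to -0.0947 for UAC against sham and from 0.133 to 0.961 for miR-330 against UAC. Among these, keeping only the identifier with the most UMIs repeats the main value, since no listed member has a further identifier. S phase sums changed direction. Log2 ratios outside the counting interval follow, as S phase then G2/M, UAC against sham before miR-330 against UAC. Alternatives other than those added after seeing the data come first, for members chosen with earlier results of these data known. Other total: -0.0344, -0.0670, -0.248, 0.444. Median of members: S phase -0.0341, -0.0614 and G2/M 0.265 in the second. Without the member with the most UMIs: S phase 0.00289 in the second (reversed), G2/M -0.245, 0.362. Removing a named class rests on the naming rule, which was settled after the tables were seen. Without erythroid-like clusters: -0.127, -0.0789, -0.275, 0.388. Without B lineage-like clusters: -0.0338, 0.0807 (reversed), -0.291, 0.637. Added after seeing the data: without unnamed clusters, -0.0267, -0.00484, -0.241, 0.503; without the highest G2/M cluster, 0.122, 0.0979 (reversed), -0.0947, 0.961; without the highest S phase cluster, -0.127, 0.358 (reversed), -0.275, 0.514; median less that of all genes, S phase -0.194 in the second, G2/M -0.197, 0.133; median less that of genes of the same quartile of length, 0.0146, -0.0911, -0.164, 0.186. For UAC against sham the main S phase interval holds 0, so its changes of sign are not marked as reversed. The cause was not tested. In the miR-330 library the highest cluster in G2/M is also that in S phase and cluster 12 remains, so its removal is not like that in the other libraries.

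Depth limits members with few counts: Pimreg has 70, 121 and 47 UMIs, and the smallest clusters hold 1352666, 1796487 and 1691006 UMIs.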
